A study of Mus musculus with 10 samples.

Results

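The genes described here are 37 markers of Kupffer cells and other macrophages. They were taken by name from the deposited expression table, in which all 37 were found among 19414 genes. All 37 also passed the filter of a mean of at least 1 CPM (reads of a gene per 1000000 reads of the library) over the mice, which 13157 genes passed. The study measured RNA from the livers of 10 females of HET3, an outbred-like mouse stock derived from several inbred strains. One group of 5 mice ate a standard diet (SD) and the other group of 5 a Longevity diet (LD), for 5 months in both groups. Mice are described as 25 months old, which may refer to the start or the end of feeding, and the labels name no other treatment, allele or agent. Each library is of 1 mouse, named by its title.

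Kupffer cells are the macrophages that live in the liver sinusoids, where they take up particles, microbes, old red cells and modified lipoproteins from the blood. They depend on signals through the receptor Csf1r and on the transcription factor PU.1, encoded by Spi1, and those of embryonic origin carry Timd4. Monocytes that enter from the blood carry Ccr2 or Cx3cr1 and can replace lost Kupffer cells, and macrophages that take up lipid and debris turn on Trem2 and Gpnmb. In bulk liver RNA, fewer cells of a type and less RNA per cell cannot be told apart. Most of the 37 genes are active in several kinds of macrophage, and Ptprc, Laptm5, Itgax, Cd9 and Axl are active in other cells too.

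Across the study, the depth estimated from the steps of the low values averaged 42.5 M reads (SD 4.35; M, 1000000 reads) for the standard diet libraries, against 29.9 M reads (SD 6.46) for those of the Longevity diet, with 5 mice in each (two-sided exact permutation p = 0.0159). Levels are in CPM, and a value written with ± is a mean and SD over the 5 mice of a diet. Nothing in the labels says how the mice were housed or assigned to a diet. Values per mouse are given in the order SD_403, SD_500, SD_501, SD_502 and SD_646, then LD_405, LD_406, LD_442, LD_513 and LD_515. Log2 differences are LD minus SD on the log2(CPM + 0.1) scale. Adjusted p-values come from limma, fitted over all 13157 genes with the Benjamini-Hochberg adjustment, and a gene passed at an adjusted p under 0.05. Positions are on mm39.

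No macrophage marker passed the test between the diets. The count was 0 of 37 members lower and 0 higher, where 1.89% of all genes tested passed, 1.23% lower and 0.661% higher. At an unadjusted p under 0.05, 6 members were lower and 0 higher, or 6 of 37, and over all genes 17.5% reached that level, 11.6% lower and 5.92% higher. The point estimates lay mostly on one side, with 35 of 37 members below 0 and 60.4% of all genes below 0. The median log2 difference was -0.66 over the members and -0.11 over all genes tested, and with median-of-ratios scaling these medians were -0.56 and -0.01. For 31 of 37 members the 95% confidence interval included 0. The 5 values on one diet overlapped with those on the other for every one of the 37 members, where 5.50% of all genes did not overlap, 3.49% being lower and 2.01% higher.

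**Figure D1:**
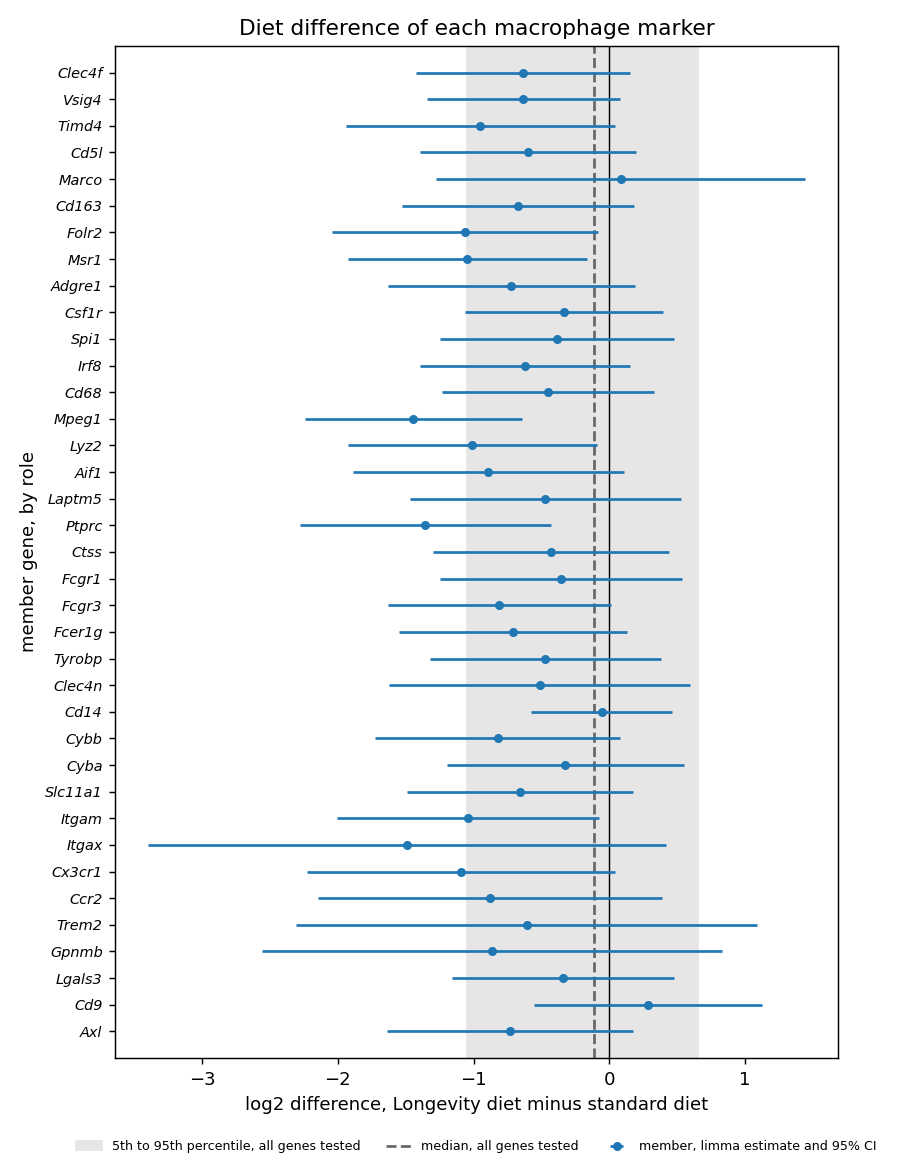
Log2 difference, Longevity diet minus standard diet, with its 95% confidence interval from limma for each of the 37 members (points and lines), against the median of all genes tested (dashed, -0.11) and their 5th to 95th percentile (grey, -1.05 to 0.65). Of the 37 points 35 lie below 0, and 31 intervals include 0.

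The Longevity diet mice differed widely among themselves in the macrophage markers. Members' levels were low in LD_406 and LD_515, close to those of the standard diet in LD_442, and between these in LD_513. In LD_405 they went both ways, with 18 members below and 19 above the standard diet mean. Relative to the mean of the 5 standard diet mice, the median over the 37 members was -1.50 on the log2 scale in LD_406 and -1.43 in LD_515. It was -0.48 in LD_513, 0.01 in LD_405 and 0.11 in LD_442. Over all genes tested the same median ran from -0.37 in LD_405 to 0.04 in LD_513 among these 5 mice. LD_515 was the lowest of the 10 mice in 15 members and LD_406 in 13. These mice together were the lowest pair in 24 of 37 members, where that was so for 5.03% of all genes tested. The pair was singled out with its low values in these members known, so this contrast is a description and not a test. LD_442 was the highest of the 10 in 8 members and the lowest in 0. Among the standard diet mice SD_502 stood low, with a median of -0.60 and 36 of 37 members under the standard diet mean, and SD_501 was the highest of the 10 mice in 16 members.

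**Figure D2:**
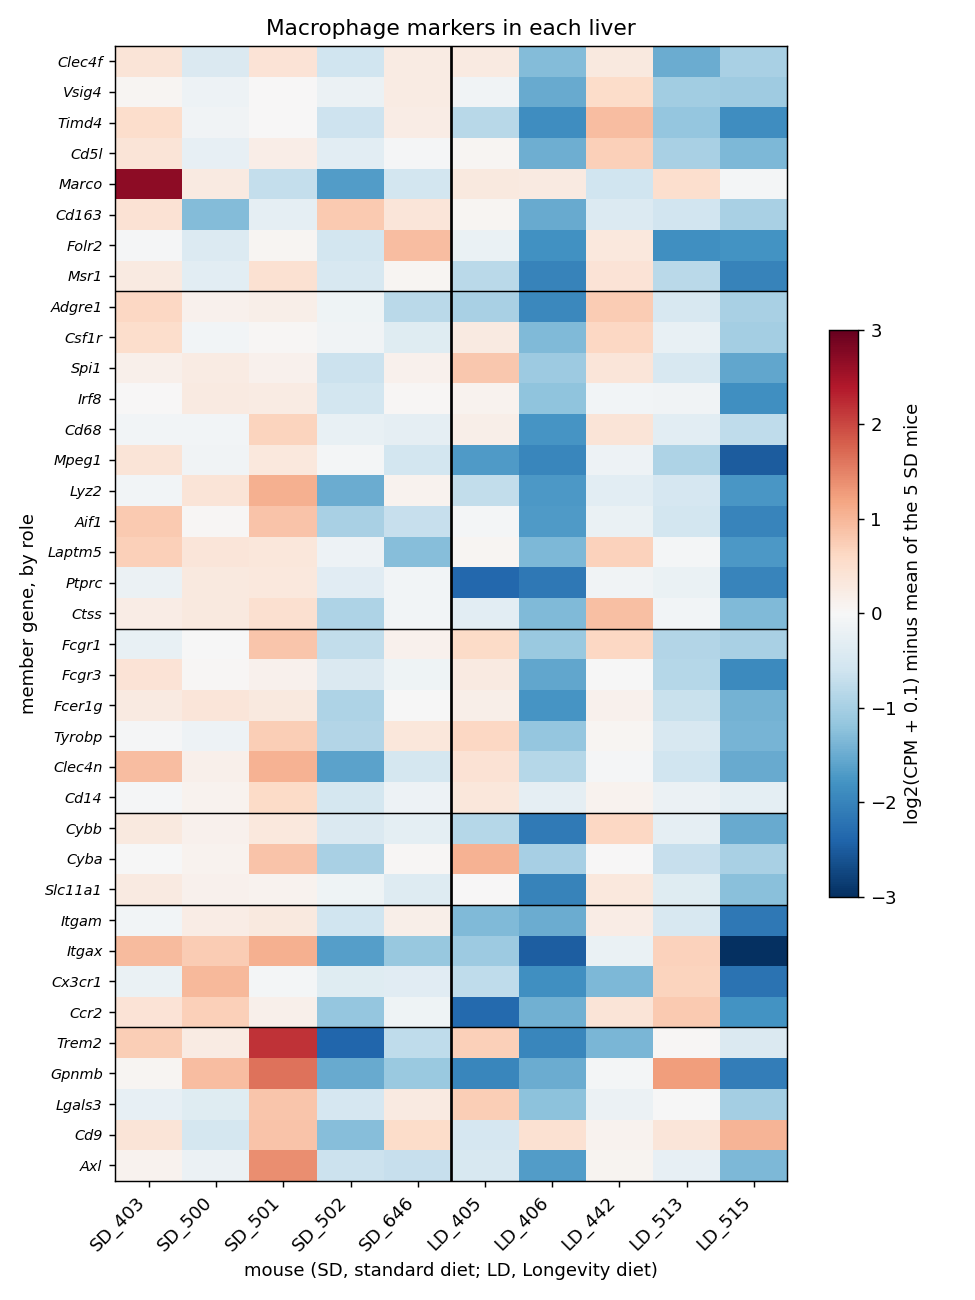
Log2(CPM + 0.1) of each member (rows, grouped by role) in each mouse (columns) minus the mean of the 5 standard diet mice, blue for lower and red for higher. The columns of LD_406 and LD_515 are blue for nearly all rows, those of LD_405 and LD_442 are mixed, and SD_502 is below the standard diet mean in 36 of 37 rows.

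The spread of log2 values was larger among the Longevity diet mice than among the standard diet mice for 29 of 37 members, and for 61.2% of all genes tested. The median SD of the members was 0.55 on the standard diet and 0.92 on the Longevity diet, against 0.38 and 0.46 over all genes. Without LD_406 and LD_515, a pair chosen with their low marker values known, the median of the members was -0.20 (all genes -0.10), 26 of 37 members were below 0 (60% of all genes), 0 passed (all genes 0.114% lower and 0.0152% higher) and 1 had an unadjusted p under 0.05 (9.98% of all genes). Leaving out LD_405 as well, a step chosen after seeing the data that leaves 2 Longevity diet mice, gave a median of -0.13, 27 members below 0 (46.3% of all genes) and 0 with an unadjusted p under 0.05 (10.6% of all genes). Without LD_442 the median was -0.92 (all genes -0.15) and 18 members had an unadjusted p under 0.05 (19.6% of all genes). Then 4 members passed towards lower values, Mpeg1, Timd4, Msr1 and Ptprc, where 1.28% of all genes passed lower and 0.692% higher.

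PU.1 binds DNA at a purine-rich core, and the promoter windows of the members were read for it because Spi1, which encodes PU.1, is one of them. The windows span 250 bases before to 50 after a gene's start and come from RefSeq on GRCm38.p6, another build than that of the gene positions above. They matched 30 of 37 members by symbol, in 34 windows. The core GAGGAA, on either strand, stood in 16 of the 34 windows (47.1%) of 15 members, and in 28.3% of all 32851 windows. The longer form GAGGAAGT, which contains the core, stood in 1 of the 34 (2.94%) and in 3.20% of all. Promoters are printed 5′ to 3′ on the gene's strand for 4 members: Mpeg1, closest to the threshold and without a core, Vsig4 with 2 cores, Itgam with 3, and Ctss with 2, of which 1 is the longer form. Capitals mark the core as GAGGAA or, on the other strand, TTCCTC.
Mpeg1 (chr19:12460520-12460819, plus strand): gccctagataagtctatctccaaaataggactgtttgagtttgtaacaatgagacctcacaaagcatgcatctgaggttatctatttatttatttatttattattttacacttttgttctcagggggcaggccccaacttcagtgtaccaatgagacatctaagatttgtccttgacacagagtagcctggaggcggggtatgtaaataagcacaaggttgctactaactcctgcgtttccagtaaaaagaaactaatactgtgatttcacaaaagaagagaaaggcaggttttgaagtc
Vsig4 (chrX:96293389-96293688, minus strand): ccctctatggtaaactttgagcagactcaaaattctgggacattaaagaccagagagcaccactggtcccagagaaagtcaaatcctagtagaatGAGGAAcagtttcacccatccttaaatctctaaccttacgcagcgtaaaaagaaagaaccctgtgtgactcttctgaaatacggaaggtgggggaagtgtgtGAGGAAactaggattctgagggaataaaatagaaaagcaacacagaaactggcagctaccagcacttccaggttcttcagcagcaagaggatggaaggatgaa
Itgam (chr7:128062390-128062689, plus strand): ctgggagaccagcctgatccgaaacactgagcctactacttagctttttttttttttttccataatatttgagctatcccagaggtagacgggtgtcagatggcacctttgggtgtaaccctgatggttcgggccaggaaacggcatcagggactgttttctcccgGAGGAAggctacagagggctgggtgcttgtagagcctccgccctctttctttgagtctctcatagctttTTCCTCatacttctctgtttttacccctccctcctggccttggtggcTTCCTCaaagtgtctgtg
Ctss (chr3:95526536-95526835, plus strand): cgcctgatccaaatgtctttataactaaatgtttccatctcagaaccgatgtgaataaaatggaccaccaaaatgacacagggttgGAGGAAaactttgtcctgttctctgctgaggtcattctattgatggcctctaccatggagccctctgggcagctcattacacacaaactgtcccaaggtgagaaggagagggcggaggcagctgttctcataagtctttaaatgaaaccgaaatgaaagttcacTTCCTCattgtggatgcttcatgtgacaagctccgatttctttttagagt
Counted from the start site, the cores of Vsig4 began at -155 and -53 and the first core of Itgam at -84. A match is a run of letters and not a measured binding site.

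Kupffer cell identity genes and scavenger receptors came to 8 members, of which 7 were below 0 and 0 passed, with a median of -0.66. Clec4f, a C-type lectin made almost only by Kupffer cells (ENSMUSG00000014542.4, chromosome 6 from 83621524 to 83633169, minus strand), stood at 194, 111, 197, 98.4 and 177 CPM on the standard diet and at 181, 60.9, 184, 53.0 and 75.9 CPM on the Longevity diet. The last group was split, with LD_405 and LD_442 within the range of the standard diet and the other 3 mice below it (156 ± 47.1 and 111 ± 65.8 CPM, log2 difference -0.64, SE 0.37, adjusted p = 0.394). Cd5l, a secreted protein of tissue macrophages, showed a like split at 119 ± 25.3 and 92.0 ± 63.8 CPM (log2 difference -0.60, adjusted p = 0.421), with 191 CPM in LD_442 and 42.3 CPM in LD_406. Per kb of transcript, Clec4f and Cd5l were among the most abundant members, at 62.9 and 58.3 CPM per kb on the standard diet and 44.9 and 45.2 on the Longevity diet, after Lyz2. These defining Kupffer genes were read in all 10 livers, which fits the name of the gene set.

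Timd4, a receptor for phosphatidylserine on resident Kupffer cells (ENSMUSG00000055546.7, chromosome 11 from 46701627 to 46735159, plus strand), was at 14.3, 9.20, 9.91, 6.36 and 11.5 CPM in the standard diet mice and at 5.56, 2.67, 19.0, 4.40 and 2.65 CPM in the Longevity diet mice. Of the latter, 4 lay below all 5 standard diet values and LD_442 lay above them all. The means were 10.3 ± 2.92 and 6.87 ± 6.92 CPM (log2 difference -0.95, SE 0.46, adjusted p = 0.304), and without LD_442 the log2 difference was -1.42 (adjusted p = 0.0402 in limma). Without LD_406 and LD_515 it was -0.35 (adjusted p = 0.830). Vsig4, a complement receptor that captures opsonised particles, held a narrow range on the standard diet with 35.2, 30.6, 34.4, 30.0 and 39.8 CPM and a wide one on the Longevity diet with 31.4, 11.9, 49.7, 16.3 and 16.1 CPM (log2 difference -0.63, SE 0.33, adjusted p = 0.342). LD_442 was again highest, and LD_406, LD_513 and LD_515 were below every standard diet mouse.

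Msr1, the class A scavenger receptor for modified lipoproteins (ENSMUSG00000025044.17, chromosome 8 from 40034726 to 40095714, minus strand), had the smallest p of these receptors. It read 18.3, 12.1, 20.6, 10.9 and 15.7 CPM on the standard diet and 8.58, 3.68, 20.0, 8.57 and 3.66 CPM on the Longevity diet, with LD_442 alone inside the standard diet range (15.5 ± 4.08 and 8.90 ± 6.69 CPM, log2 difference -1.05, SE 0.41, adjusted p = 0.203). Without LD_442 its log2 difference was -1.41 (adjusted p = 0.0492 in limma), and without LD_406 and LD_515 it was -0.40 (adjusted p = 0.737). Folr2, a folate receptor of resident macrophages, read 8.38, 6.44, 9.02, 5.88 and 16.5 and then 7.55, 2.38, 10.8, 2.33 and 2.40 CPM, with LD_406, LD_513 and LD_515 nearly equal and lowest (log2 difference -1.06, SE 0.46, adjusted p = 0.245). Cd163, which takes up haemoglobin bound to haptoglobin, was at 8.41 ± 3.89 and 4.98 ± 1.98 CPM (adjusted p = 0.402).

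Marco, another class A scavenger receptor, was the exception among these receptors. Its values were 19.4, 3.57, 1.75, 0.851 and 1.99 CPM on the standard diet and 3.64, 3.56, 1.92, 4.25 and 2.81 CPM on the Longevity diet. One mouse, SD_403, stood far above the other 9, and the estimate was near 0 with a wide interval (log2 difference 0.08, 95% CI -1.28 to 1.44, adjusted p = 0.960). Its sign turned in 8 of 24 alternative settings.

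The pan-macrophage and leukocyte genes came to 11 members, all below 0, with a median of -0.62 and 0 past the test. Mpeg1, which encodes perforin-2, a pore-forming protein that macrophages direct against engulfed bacteria (ENSMUSG00000046805.11, chromosome 19 from 12438143 to 12442647, plus strand), came closest to the threshold of all 37. It stood at 134, 95.8, 128, 99.0 and 69.4 CPM on the standard diet and at 31.3, 26.3, 91.9, 54.3 and 18.2 CPM on the Longevity diet. LD_442 was the only Longevity diet mouse inside the standard diet range. The means were 105 ± 26.2 and 44.4 ± 29.8 CPM (log2 difference -1.44, SE 0.37, 95% CI -2.24 to -0.65, unadjusted p = 0.00174, adjusted p = 0.0685 in limma). Without LD_442 it passed (log2 difference -1.77, adjusted p = 0.0141 in limma), and without LD_406 and LD_515 the difference was -0.93 (adjusted p = 0.406).

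Ptprc, which encodes CD45, a phosphatase on the surface of all nucleated blood cells (ENSMUSG00000026395.17, chromosome 1 from 137990599 to 138103446, minus strand), was at 14.4, 19.8, 20.0, 12.8 and 15.2 CPM on the standard diet and 3.10, 3.60, 15.04, 14.2 and 4.00 CPM on the Longevity diet. LD_442 and LD_513 lay inside the standard diet range and the other 3 far below it (16.5 ± 3.30 and 7.98 ± 6.06 CPM, log2 difference -1.36, SE 0.43, adjusted p = 0.128). Ptprc passed without LD_442 (log2 difference -1.67, adjusted p = 0.0494 in limma), and without LD_406 and LD_515 it stood at -0.88 (adjusted p = 0.564). Since Ptprc is shared with lymphocytes and neutrophils, it does not track macrophages alone.

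Lyz2, the lysozyme of myeloid cells, was the most abundant member per kb (125 CPM per kb on the standard diet and 58.2 on the Longevity diet). Its levels were 135, 186, 298, 50.1 and 153 CPM and 84.3, 42.7, 114, 100.4 and 42.0 CPM, with SD_502 low and SD_501 high among the standard diet mice (log2 difference -1.01, SE 0.43, adjusted p = 0.239), and its reads can be shared with its close paralog Lyz1. Aif1, an actin-bundling protein of macrophages also called IBA1, was at 11.8, 6.95, 12.3, 3.38 and 4.14 CPM and 6.55, 2.02, 5.89, 4.63 and 1.65 CPM (log2 difference -0.89, SE 0.46, adjusted p = 0.345), with SD_502 and SD_646 below 3 of the Longevity diet mice. Csf1r and Spi1 had the smallest differences of this group. Csf1r, the receptor for the macrophage growth factors Csf1 and Il34, was at 50.3 ± 12.2 and 44.4 ± 23.9 CPM (log2 difference -0.33, 95% CI -1.06 to 0.40, adjusted p = 0.644), and Spi1 at 12.1 ± 2.62 and 10.8 ± 7.11 CPM (log2 difference -0.39, 95% CI -1.25 to 0.47, adjusted p = 0.649). Without LD_406 and LD_515 both had the other sign, at 0.23 and 0.24. The 5 further members are the adhesion receptor Adgre1 (the F4/80 antigen), the transcription factor Irf8, the lysosomal proteins Cd68 and Laptm5 and the protease Ctss, with log2 differences of -0.72, -0.62, -0.45, -0.47 and -0.43 (adjusted p = 0.392 to 0.631).

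**Figure D3:**
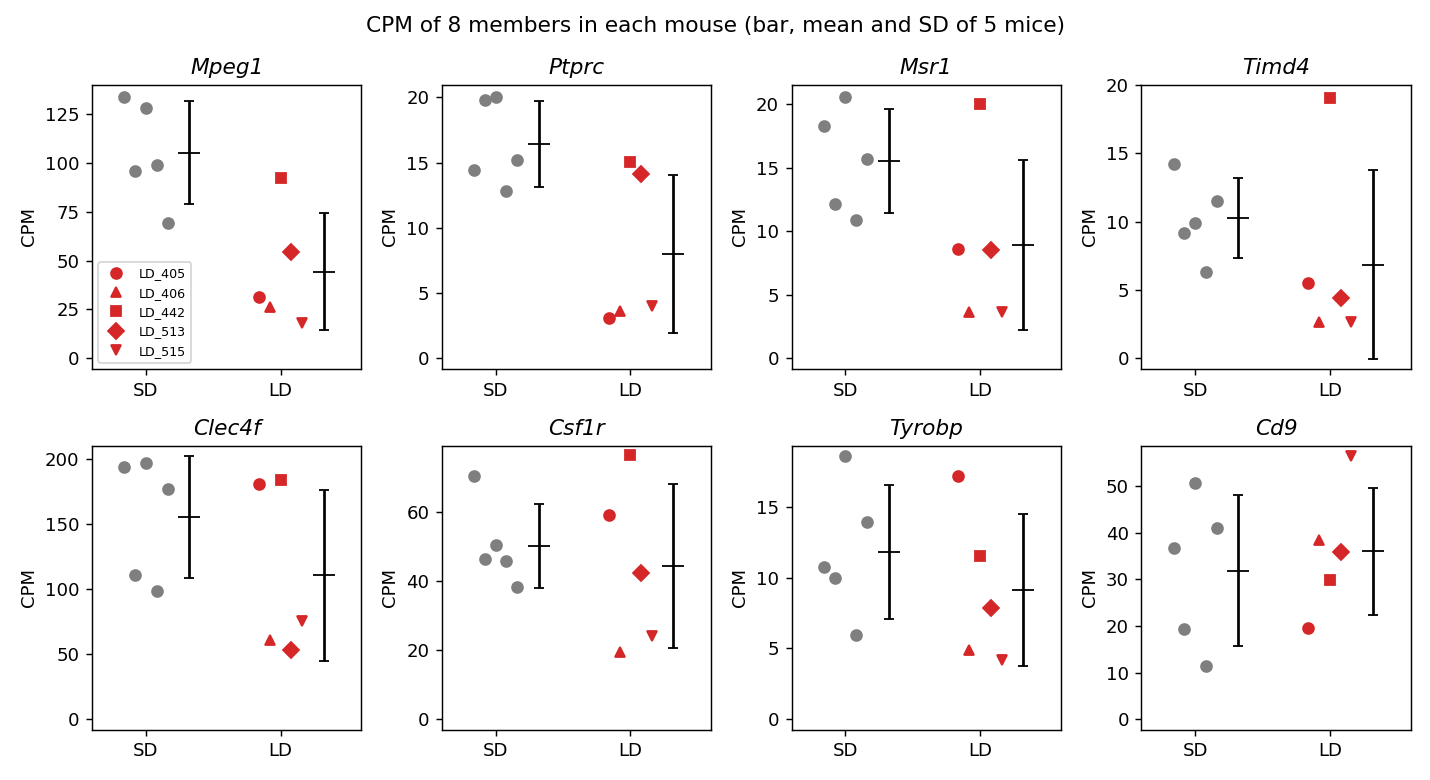
CPM of 8 members in each standard diet mouse (grey) and each Longevity diet mouse (red, 1 symbol per mouse), with the mean and SD of 5 mice at the side. LD_442 (square) lies in or above the standard diet range in all 8 panels, and LD_406 and LD_515 (triangles) lie below it in all panels except Cd9.

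Fc receptors, their signalling adaptors and pattern receptors came to 6 members, all below 0, with a median of -0.49 and 0 past the test. Fcer1g is the adaptor chain through which Fc receptors such as Fcgr1 and Fcgr3 signal, and Tyrobp (DAP12) is the adaptor of Trem2. The low-affinity receptor Fcgr3 was at 16.7, 12.8, 13.7, 9.17 and 11.4 CPM on the standard diet and 15.2, 4.21, 12.4, 6.88 and 3.27 CPM on the Longevity diet (log2 difference -0.81, SE 0.38, adjusted p = 0.295), and its reads can be shared with the similar Fcgr2b. LD_405 and LD_442 lay inside the standard diet range and the other 3 mice below it.

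Fcer1g read 20.0, 21.5, 20.2, 8.69 and 16.3 CPM and 18.7, 4.81, 18.0, 10.4 and 6.08 CPM (log2 difference -0.71, SE 0.39, adjusted p = 0.370). For Tyrobp the levels were 10.8, 9.97, 18.6, 5.93 and 13.95 CPM and 17.2, 4.89, 11.5, 7.84 and 4.16 CPM (log2 difference -0.47, SE 0.40, adjusted p = 0.565). In both adaptors LD_406 and LD_515 were the lowest mice and LD_405 was at a standard diet level. Clec4n (dectin-2), a lectin for fungal sugars, was at 6.22, 3.64, 6.80, 1.00 and 2.22 CPM and 4.43, 1.74, 3.14, 2.11 and 1.08 CPM (log2 difference -0.51, SE 0.51, adjusted p = 0.639), all 5 Longevity diet values lying within the standard diet range. Cd14, a co-receptor for bacterial lipopolysaccharide, had the narrowest confidence interval of the 37, at 8.18 ± 2.36 and 7.73 ± 1.56 CPM (log2 difference -0.06, 95% CI -0.58 to 0.46, adjusted p = 0.925). Its sign turned in 5 of 25 alternative settings, median-of-ratios scaling and quantile normalization among them. The high-affinity receptor Fcgr1 was at 4.76 ± 2.00 and 4.03 ± 2.50 CPM (adjusted p = 0.688).

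The phagosome group holds Cybb and Cyba, the membrane subunits of the NADPH oxidase that makes superoxide in phagosomes, and Slc11a1 (NRAMP1), which exports metal ions from them. All 3 were below 0 and 0 passed, with a median of -0.66. Cybb was at 25.3, 22.7, 26.0, 15.4 and 17.0 CPM on the standard diet and 11.5, 4.69, 32.2, 17.3 and 7.27 CPM on the Longevity diet (log2 difference -0.82, SE 0.42, adjusted p = 0.329), highest of all 10 mice in LD_442 and lowest in LD_406. Its partner Cyba, which is also active outside the blood lineage, read 17.7, 19.2, 32.1, 8.96 and 18.1 CPM and 36.996, 8.81, 17.8, 10.9 and 8.96 CPM (log2 difference -0.32, SE 0.41, adjusted p = 0.712) and was highest of all in LD_405. Slc11a1 read 11.4, 10.2, 10.1, 8.64 and 7.22 CPM and 9.50, 2.26, 11.7, 7.35 and 3.89 CPM (log2 difference -0.66, SE 0.39, adjusted p = 0.4004). LD_405 was below every standard diet mouse for Cybb and above every one for Cyba. The Cybb transcript is 4.75 kb long with 42.4% GC and that of Cyba 0.744 kb with 59.3% GC, and values in LD_405 ran with length and GC content over all genes (slopes of -0.34 and 0.49, in the units given with the lengths). The part of these slopes in the contrast was not tested.

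Receptors and integrins of monocytes and dendritic cells had the lowest median of the 6 groups, -1.07 over 4 members, all below 0 and 0 past the test. Itgam (CD11b), the integrin of monocytes and neutrophils, was at 2.08, 2.59, 2.75, 1.42 and 2.50 CPM on the standard diet and 0.819, 0.728, 2.59, 1.56 and 0.423 CPM on the Longevity diet (log2 difference -1.04, SE 0.45, adjusted p = 0.248). LD_442 and LD_513 lay in the standard diet range and the other 3 mice below it. Itgax (CD11c), a dendritic cell integrin, was at 3.96, 3.51, 4.30, 0.576 and 0.864 CPM and 0.896, 0.283, 1.73, 3.33 and 0 CPM and is listed at 0 in LD_515, where 3 reads would be 0.116 CPM. Its log2 difference of -1.49 (SE 0.88, adjusted p = 0.405) ran from -2.19 to 0.25 across settings, the last without LD_405, LD_406 and LD_515.

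Cx3cr1, the fractalkine receptor, was at 1.84, 4.27, 2.05, 1.63 and 1.68 CPM and 1.23, 0.526, 0.786, 3.47 and 0.385 CPM (log2 difference -1.09, SE 0.53, adjusted p = 0.302), with SD_500 and LD_513 each standing above the rest of their diet. Ccr2, which draws monocytes out of the marrow and into tissue, was at 4.62, 5.81, 3.86, 1.502 and 3.19 CPM and 0.614, 1.21, 4.60, 6.02 and 0.923 CPM (log2 difference -0.88, SE 0.59, adjusted p = 0.462). The mice of the Longevity diet spanned a wider range than the standard diet did, with LD_513 highest of all 10 and LD_405, LD_406 and LD_515 the lowest.

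Genes of lipid-associated macrophages and the receptor Axl came to 5 members, with 4 below 0, 1 above and 0 past the test (median -0.61). Trem2, a lipid-sensing receptor, and Gpnmb, a lysosomal glycoprotein, are the defining pair and were near the filter, with Longevity diet means under 1 CPM. Trem2 was at 1.88, 1.29, 5.17, 0.125 and 0.598 CPM on the standard diet and 1.84, 0.202, 0.354, 1.10 and 0.769 CPM on the Longevity diet (log2 difference -0.61, 95% CI -2.31 to 1.09, adjusted p = 0.721). Gpnmb read 1.03, 1.95, 3.25, 0.275 and 0.399 CPM and 0.179, 0.283, 0.943, 2.46 and 0.154 CPM (log2 difference -0.86, 95% CI -2.56 to 0.83, adjusted p = 0.600). Mice of the same diet differed many-fold in both genes, and both intervals reach well past 0 on either side.

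Axl, a receptor tyrosine kinase for dead-cell clearance, was at 28.9, 23.6, 70.4, 17.0 and 16.5 CPM and 19.1, 8.25, 28.4, 22.5 and 10.4 CPM (log2 difference -0.73, SE 0.42, adjusted p = 0.391), with SD_501 far above the others. Lgals3 (galectin-3) was at 7.29, 6.68, 15.4, 6.06 and 10.3 CPM and 14.5, 3.60, 7.58, 8.54 and 4.19 CPM (log2 difference -0.34, SE 0.38, adjusted p = 0.675), with LD_405 next to the highest standard diet mouse. Cd9, a tetraspanin that many liver cells carry, did not follow the other members. It read 36.7, 19.2, 50.7, 11.3 and 41.0 CPM and 19.5, 38.4, 29.8, 35.8 and 56.4 CPM (log2 difference 0.28, 95% CI -0.56 to 1.13, adjusted p = 0.738), and LD_515 and LD_406, low for most other members, had the highest values of the Longevity diet.

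To ask which members differed between the diets relative to the macrophage signal of the same liver, each log2 value was set against the mean log2 value of Adgre1 and Csf1r in that mouse. Of the other 35 members 0 passed in limma (0 with an unadjusted p under 0.05), where 0.958% of all genes passed on this scale, 0.258% lower and 0.699% higher, and 8.45% had an unadjusted p under 0.05, 1.13% lower and 7.32% higher. Of the 35 ratios 23 were lower and 12 higher on the Longevity diet, with a median of -0.13, where 19.7% of all genes were lower. The reference genes were themselves lower on this diet (Adgre1 -0.72, Csf1r -0.33), which moves the difference of every gene up alike. The share of 19.7% is therefore set in part by the reference and is no test of the members. The direction of the member ratios turned with the reference. Of the ratios to Ptprc and Laptm5, 8 of 33 were lower (median 0.26), and of those to Adgre1 alone 15 of 35 (median 0.06). Shares of all genes are not given here for these references. Each ratio carries the spread of the reference pair, and the SEs were 0.51 to 0.74. Mpeg1 was the only one of the 35 whose ratios did not overlap, where 0.654% of all genes did not overlap on this scale, 0.274% lower and 0.380% higher. Its log2 ratio was 2.06, 2.13, 2.46, 2.32 and 2.27 on the standard diet and 0.89, 1.92, 1.40, 1.68 and 0.75 on the Longevity diet. All 5 Longevity diet mice, LD_442 included, lay below the standard diet range (difference -0.92, limma adjusted p = 0.643). A two-sided exact permutation test of this ratio gave p = 0.00794, the smallest that 5 mice per diet can give. Any ratio singled out for its lack of overlap takes this value, so it adds nothing to the count above. With Adgre1 alone, or with Ptprc and Laptm5, as the reference, 0 ratios were free of overlap, so the separation of Mpeg1 changed with the reference. The ratios of Ptprc (-0.83, adjusted p = 0.663), Cd9 (0.81, adjusted p = 0.663) and Clec4f (-0.11, adjusted p = 0.944) overlapped.

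Transcript length moved with the members' values in some livers. Lengths are of the longest transcript in GENCODE M21, which covered all 37 members. In LD_405 the 12 shortest members (0.597 to 1.42 kb) had a median of 0.18 on the log2 scale against the standard diet mean, and the 12 longest (3.70 to 5.74 kb) a median of -0.97. Tyrobp, Cyba and Lgals3 are in the first set and Mpeg1, Ptprc, Cybb, Itgam and Ccr2 in the second. The corresponding medians were -1.44 and -1.76 in LD_406, -1.41 and -1.90 in LD_515, -0.52 and -0.21 in LD_513 and 0.03 and -0.08 in LD_442. Over all genes tested with a length, the slope of a mouse's log2 deviation was -0.34 per doubling of length and 0.49 per 10 percentage points of GC content in LD_405. In the other 9 mice these slopes ran from -0.12 to 0.27 and from -0.17 to 0.08. A further setting, chosen after seeing the data, removed both slopes from every mouse. It also took out each mouse's mean deviation over these genes, so the libraries were rescaled as well. In it 0 members passed (all genes 1.88% lower and 3.25% higher), 35 were below 0 (45.9% of all genes) and the median was -0.53 (all genes 0.04). Mpeg1 then stood at -1.19 (adjusted p = 0.0565) and Ptprc at -0.97 (adjusted p = 0.106). The parts of the slopes and of the rescaling in these values were not told apart.

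**Figure D4:**
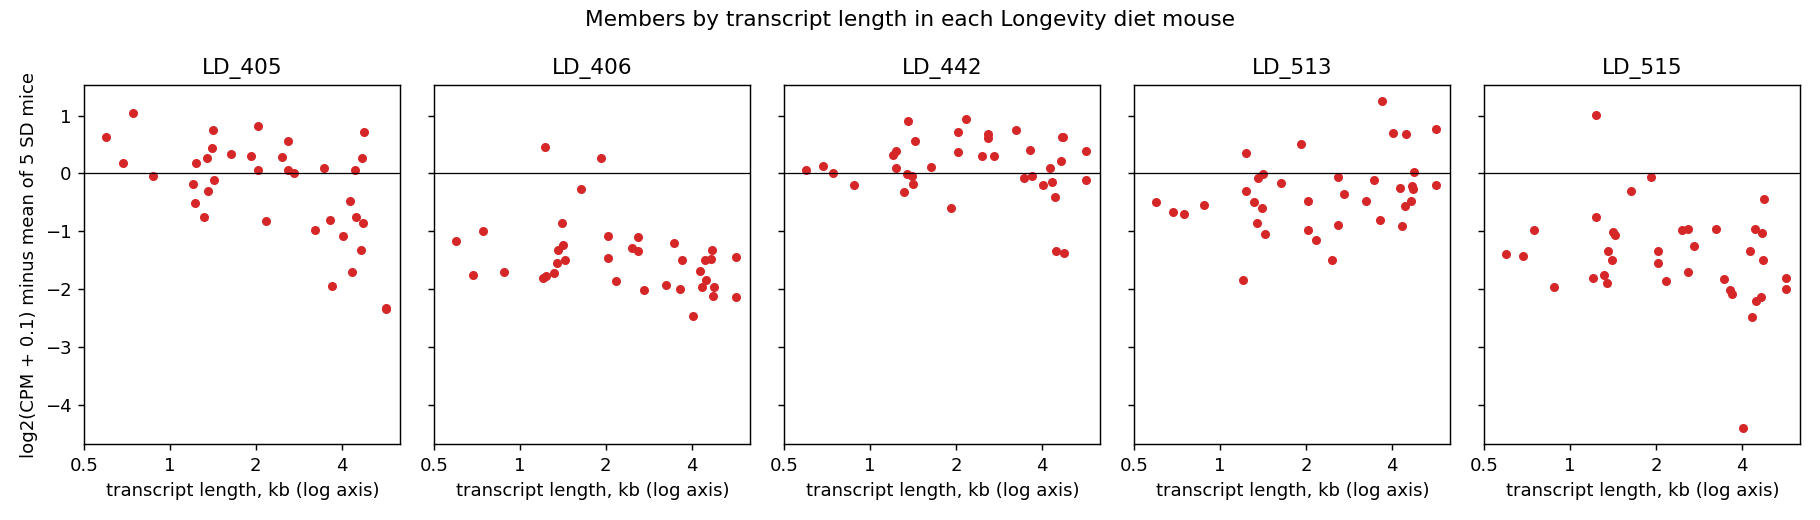
Log2(CPM + 0.1) of each of the 37 members minus the mean of the 5 standard diet mice, against transcript length (log axis), 1 panel for each Longevity diet mouse. In LD_405 the points run from about 0 among short transcripts to below -1 among several long ones, while in LD_406 and LD_515 most points lie below -1 at all lengths.

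Other macrophage genes, from a list of 30 that excludes the 37 members, gave counts of the same kind. Of 29 tested 28 were below 0 and 0 passed, 9 had an unadjusted p under 0.05, all lower, and the median was -0.53. Over all genes tested 60.4% were below 0, and 1.23% passed lower and 0.661% higher. At an unadjusted p under 0.05, 11.6% of all genes were lower and 5.92% higher. The 4 with the smallest p were the mannose receptor Mrc1, shared with sinusoidal endothelium, at 35.4 ± 4.03 and 19.9 ± 10.9 CPM (log2 difference -0.96, adjusted p = 0.1002), the platelet-receptor lectin Clec1b at -0.88 (adjusted p = 0.153), the endotoxin receptor Tlr4 at -1.11 (adjusted p = 0.2001) and Ms4a6c at -1.09 (adjusted p = 0.205). Growth factors and niche ligands of macrophages gave 0 of 9 past the test, 1 with an unadjusted p under 0.05, 9 of 9 below 0 and a median of -0.40. Csf1, the ligand of Csf1r, was at 17.6, 19.1, 16.6, 18.4 and 10.3 CPM on the standard diet and 9.93, 9.70, 14.7, 16.5 and 8.77 CPM on the Longevity diet (log2 difference -0.47, SE 0.24, adjusted p = 0.337), and the groups overlapped. Pros1 (protein S), a ligand of the Axl family that hepatocytes also secrete, was at 43.2 ± 9.07 and 23.9 ± 7.17 CPM (adjusted p = 0.0904). Ccl2, which attracts cells with Ccr2, had a log2 difference of -1.01 (adjusted p = 0.379) and the Notch ligand Dll4 one of -0.70 (adjusted p = 0.394).

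Other liver cell types were followed by their markers. Over all genes tested 60.4% were below 0, 1.23% passed lower and 0.661% higher. An unadjusted p under 0.05 was reached by 11.6% of all genes as lower and 5.92% as higher. The summed level of the 37 members was 661 to 1379 CPM on the standard diet and 361 to 1165 CPM on the Longevity diet. Sinusoidal endothelial markers summed to 275 to 400 CPM and 123 to 244 CPM, with 10 of 10 below 0, 9 with an unadjusted p under 0.05 and 0 past the test. Stellate cell and fibroblast markers summed to 375 to 533 CPM and 214 to 347 CPM, with 10 of 10 below 0, 8 with an unadjusted p under 0.05 and 1, Pdgfrb, past the test. These lists did not overlap between the diets in summed level, unlike the macrophage genes. In mean log2 level LD_406 and LD_515 were the lowest of the 10 mice for the endothelial list (3.16 and 3.10, against 3.99 to 4.17 in the other Longevity diet mice), for B and plasma cells (0.22 and -0.46), for T and NK cells (-1.68 and -2.10) and for neutrophils (-2.07 and -1.95). For the stellate cell and fibroblast list the lowest mice were LD_406 (3.54) and LD_405 (3.67). For the dendritic cell list they were LD_515 (-1.65) and SD_502 (-1.22). For the cholangiocyte list LD_515 was the highest of the 10 (1.16). B and plasma cell markers summed to 24.5 to 98.6 CPM on the standard diet and 10.6 to 33.7 CPM on the Longevity diet, and T and NK cell markers to 6.83 to 22.9 and 1.54 to 22.5 CPM, with 0 past the test in either list. An unadjusted p under 0.05 was reached by 4 of 7 tested B and plasma cell markers, all lower, and by 0 of 7 T and NK cell markers. Neutrophil markers summed to 6.41 to 127 CPM on the standard diet and 2.43 to 7.96 CPM on the Longevity diet. Of 7 tested 1 passed, S100a8, lower, and 4 had an unadjusted p under 0.05, all lower. Dendritic cell markers summed to 8.37 to 14.8 and 4.58 to 11.2 CPM, with 0 of 3 tested past the test. Cholangiocyte markers summed to 20.4 to 46.9 and 15.6 to 34.5 CPM and erythroid markers to 96.2 to 788 and 176 to 557 CPM, with 0 past the test in either list. An unadjusted p under 0.05 was reached by 1 of 5 tested in each of these lists, lower, and by 0 of 3 dendritic cell markers. Hepatocyte markers summed to 98889 to 148203 CPM on the standard diet and 144544 to 198962 CPM on the Longevity diet. Alb made up most of these sums, at 79126 ± 19773 and 124794 ± 20701 CPM. Of the 9 tested 5 were below 0, with a median of -0.01, and 1 passed, Cps1, lower. An unadjusted p under 0.05 was reached by 4 of them, with 2 lower and 2 higher. No marker was at 0 in all 10 mice. At 0 in at least 1 mouse were 6 of 10 neutrophil, 4 of 10 T and NK cell, 6 of 8 dendritic, 2 of 8 B cell, 2 of 8 cholangiocyte and 1 of 10 endothelial markers, the last being Lyve1. The estimated depth was 25.4 M reads for LD_442, 24.7 M reads for LD_406 and 26.0 M reads for LD_515. The part of these cells and of depth in the macrophage values was not tested.

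**Figure D5:**
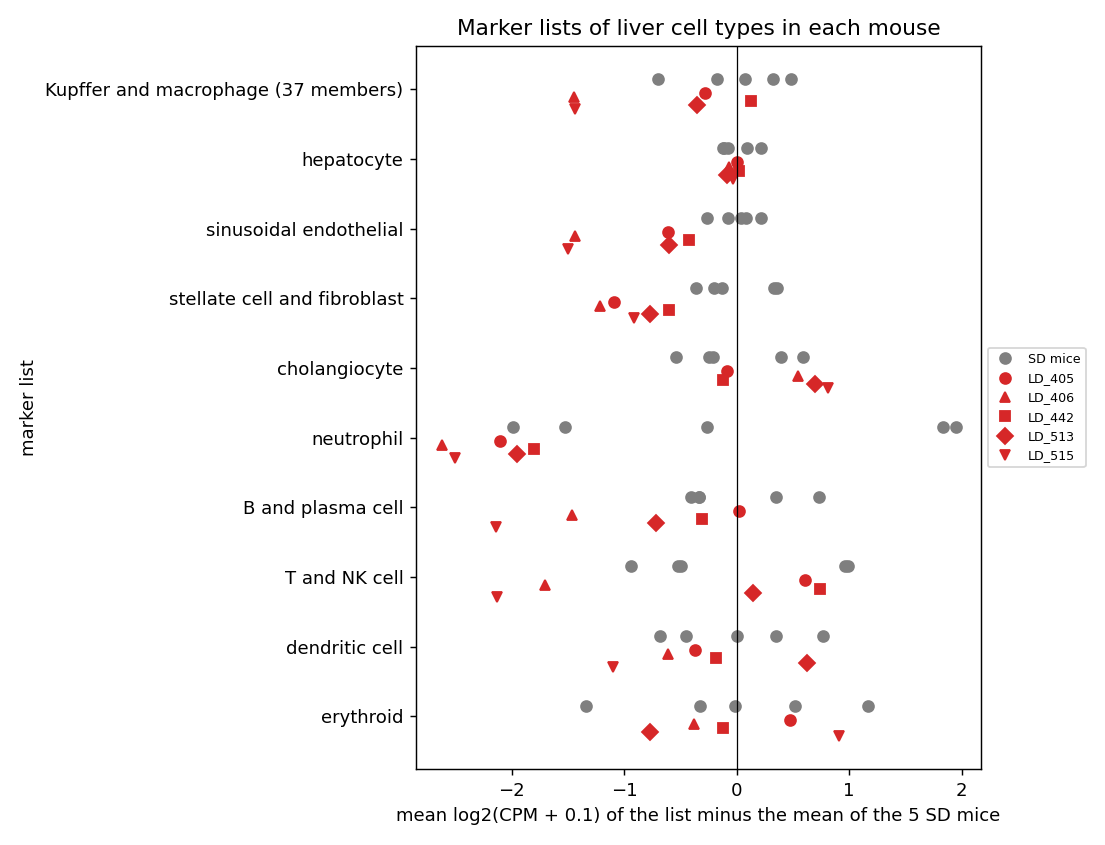
Mean log2(CPM + 0.1) of each marker list in each mouse minus the mean of the 5 standard diet mice (grey, standard diet mice; red, 1 symbol per Longevity diet mouse). LD_406 and LD_515 (triangles) are lowest for the 37 macrophage genes, the endothelial, neutrophil, B cell and T cell lists, while the hepatocyte list stays near 0 in every mouse.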

How the data were processed

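Liver RNA, poly-A selected per the labels' protocols, was read from 10 mice. The authors deposited 1 table of CPM with 0.0001 added to each value; every column sums to 1000000 without that addition. STAR, Partek and mm39 are named in the submitters' processing notes without versions. The quantifier, annotation release, low-count filter and strand setting are not given in the sources used here. The added 0.0001 was subtracted. The step of low values gave depths of 24.7 to 45.7 M reads. Of the values under 100 reads, 84.5% to 88.0% lay within 0.1 of a whole read, under the 95% set for treating values as counts, so limma 3.58.1 (R 4.3.3, statmod 1.5.0; trend and robust) was run on log2(CPM + 0.1) for the 13157 genes averaging 1 CPM or more, with diet as the only term. The fit was also run on simulated tables with independent noise for each gene and no shift shared by genes within a mouse. Their outcome is not given here and does not vouch for the fit where many genes shift together. CPM are shares of a library, so a rise of abundant genes lowers the rest.

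The mouse numbers are not shared between diets, and nothing pairs the mice. The members were taken by name from a given list and were not chosen on these values. The plan, with the other lists and the role groups, was written with earlier results of these data known. Full values are given for up to 4 members of each role group with the smallest unadjusted p, for members past a test and for ratios without overlap, and up to 4 genes of each list of other macrophage genes are named. Clec4f, Marco, Cd9, Cd5l, Cd163, Csf1r, Spi1, Cd14 and Fcgr1 were added after their values were seen. Alternatives were other pseudocounts, filters, scalings, weights, the leading digit of the mouse number, voom and leaving out mice. Removing slopes on length and GC content (and with them each mouse's mean deviation), leaving out LD_405, LD_406 and LD_515 together, and the exact test of a ratio were added after seeing the data. Table ends were taken as 1 below the printed stop. Protein sequences were not analysed here.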

Additional observations from a re-analysis of the deposited data

Results flagged for a closer look

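Within the 74 sets of 5 mice formed by 37 members and both diets, 7 had a highest or lowest mouse whose gap to the next, over the whole range, exceeded Dixon's critical value for 5 samples. That value flags about 1 in 20 sets by chance when values are independent and normally distributed. Here it was applied to CPM without a log scale, for genes whose levels moved together within a mouse. No share over all genes was taken, so the 7 flags are not read as more than chance gives. On the standard diet, SD_403 had 19.4 CPM of Marco, against 0.851 to 3.57 in the other 4 mice. SD_501 had 22.9 CPM of Cd68 (others 11.8 to 13.5) and 70.4 CPM of Axl (others 16.5 to 28.9). SD_500 had 4.27 CPM of Cx3cr1 (others 1.63 to 2.05), and SD_502 had the low value of 7.48 CPM of Spi1 (others at least 12.8). On the Longevity diet, LD_442 had 19.0 CPM of Timd4 (others 2.65 to 5.56) and LD_513 had 3.47 CPM of Cx3cr1 (others 0.385 to 1.23).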

How the results depend on the processing

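The count of 0 members past the test held in all alternatives except leaving out LD_442, which gave 4 lower; leaving out each mouse gave 0 to 4. Members with an unadjusted p under 0.05 were 6, and 11 with weights per library, 10 with the leading digit of the mouse number, 1 without LD_406 and LD_515, 0 without LD_405, LD_406 and LD_515, and 2 to 18 leaving out each mouse. The count of members without overlap, 0, was 0 to 3 leaving out each mouse. Shares of all genes are not given here for these overlap counts. They are also not given for unadjusted p with weights per library, the leading digit or left-out mice other than those above. Counts without such a share are not read as a result about the members. Signs turned as follows. Without LD_406 and LD_515 the log2 differences were 0.23 for Csf1r, 0.24 for Spi1, 0.088 for Cd68, 0.23 for Laptm5, 0.17 for Ctss, 0.10 for Fcgr1, 0.066 for Tyrobp, 0.10 for Cd14, 0.12 for Cyba, 0.19 for Lgals3 and -0.019 for Cd9. Without LD_405, LD_406 and LD_515, a setting chosen after seeing the data, they were 0.13 for Adgre1, 0.21 for Csf1r, 0.042 for Cd68, 0.31 for Laptm5, 0.41 for Ctss, 0.18 for Cybb, 0.25 for Itgax, 0.59 for Ccr2, 0.60 for Gpnmb and -0.038 for Marco. Marco was at -0.039 with a pseudocount of 1 CPM, -0.15 with weights per library, -0.46 with the leading digit, and -0.34 to 0.75 leaving out each mouse. Cd14 was at 0.046 with median-of-ratios scaling, 0.12 with quantile normalization and -0.19 to 0.088 leaving out each mouse, and Cd9 was at -0.038 to 0.50 leaving out each mouse.

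Ratios to Adgre1 and Csf1r gave 8 members lower and 4 higher with weights per library, and 0 in the other settings. The share of all genes passing on this scale with weights per library is not given here. These counts are therefore not read as a result about the members. Ratios with an unadjusted p under 0.05 were 0, 12 with those weights, 1 each with a pseudocount of 0.01, quantile normalization, the leading digit, voom, the reference of Ptprc and Laptm5 or without LD_406 and LD_515, and 0 to 3 leaving out each mouse. Ratios below 0 were 23, but 8 with the reference of Ptprc and Laptm5, where these genes were left out as well, and 15 with Adgre1 alone. Ratios without overlap were 1, 0 with either other reference, 2 without LD_405, LD_406 and LD_515, and 1 to 2 leaving out each mouse.

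Over all genes 162 passed lower and 87 higher. These counts were 476 and 329 with weights per library, 70 and 28 with the leading digit, 15 and 2 without LD_406 and LD_515, 12 and 3 without LD_405 as well, 245 and 422 with length and GC slopes removed, 138 and 151 with median-of-ratios scaling, 148 and 151 with quantile normalization, and 58 to 227 and 31 to 151 leaving out each mouse. The median over all genes, -0.11, was 0.0036 with quantile normalization, 0.042 with slopes and mean deviations removed and 0.036 without LD_405, LD_406 and LD_515. The cause of these shifts was not tested. No paired analysis was possible because the diets share no mouse number.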

Other observations

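The complement genes C1qa, C1qb and C1qc, which macrophages make, were picked out of the list of other macrophage genes after their values were seen. C1qa was at 76.6, 65.4, 95.3, 40.03 and 75.2 CPM on the standard diet and 156, 39.6, 84.6, 45.9 and 31.8 CPM on the Longevity diet (log2 difference -0.18, limma adjusted p = 0.837). For C1qb the log2 difference was -0.35 (adjusted p = 0.689) and for C1qc -0.23 (adjusted p = 0.766). LD_405, the library whose values ran most with transcript length and GC content (slopes of -0.34 per doubling and 0.49 per 10 percentage points), was the highest of the 10 mice for all 3, and the part of those slopes was not tested.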
